A study of Mus musculus with 16 samples.

Results

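The genes described here are 10 genes that white fat cells express strongly, chosen by symbol from a table of 15156 genes measured in mouse pancreas: Adipoq, Lep, Cfd, Retn, Plin1, Plin4, Cidec, Fabp4, Lpl and Pparg. All 10 were present and all 10 passed the filter on low values, which left 14220 genes to test. Total RNA was sequenced from the whole pancreas of 16 mice, 4 in each of 4 genotype groups. DMC mice carried floxed alleles of both Daxx and Men1 (Daxx fl/fl Men1 fl/fl) with a Pdx1-Cre transgene, MC mice carried Men1 fl/fl with Pdx1-Cre, DC mice carried Daxx fl/fl with Pdx1-Cre, and WT mice were wild type. Daxx encodes a chaperone for a histone H3 variant, and Men1 encodes menin, a subunit of histone methyltransferase complexes. All animals, WT included, were 6 to 10 weeks old at treatment and had caerulein, an acinar cell secretagogue that causes pancreatitis, at 50 ug/kg per injection. Injections were given 4 times a day on 3 days of each week over 3 weeks, and tissue was taken 5 days after the last. Pdx1-Cre recombines in the pancreatic epithelium, and no Cre is named in the label of WT mice, so Cre and the floxed alleles cannot be told apart in comparisons with WT. Pancreas without caerulein was not analysed here.

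White adipocytes store triglyceride in a large droplet coated by perilipins, take up fatty acids that lipoprotein lipase frees from circulating lipoproteins, and secrete hormones called adipokines. The nuclear receptor PPARγ, with C/EBP factors, drives their differentiation and many of their genes. In the pancreas they lie between the lobules and in the surrounding fat, and fat replacement of injured exocrine tissue is well known in pancreatic disease. Of the 10 genes, Adipoq, Plin1, Plin4, Lep, Retn and Cidec are mostly made by adipocytes, whereas Fabp4, Cfd, Pparg and Lpl are also made by endothelium, macrophages or other cells. In RNA from whole tissue, fewer cells of a type and less RNA per cell cannot be told apart.

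Levels are normalized counts, which are gene counts divided by a size factor for each library. Summed over the genes of the table and calculated back from the normalized counts, libraries held 13481063 to 23728309 reads. Of these, 33.5% to 51.8% fell on the 10 most abundant genes of each library. Reads outside these genes are not included. A gene without a read could still have had up to 3, a limit of 1.84 to 5.30 normalized counts across the libraries that reflects counting error alone. The targeted genes were checked first. Men1 averaged 168 ± 10.6 in DMC, 132 ± 13.3 in MC, 482 ± 61.9 in DC and 368 ± 61.3 in WT (SD, n = 4 each), and so followed the labels. Daxx averaged 182 ± 30.4 in DMC, 246 ± 26.1 in MC, 223 ± 15.6 in DC and 263 ± 65.0 in WT, so that its levels in DC overlapped those in WT.

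The bases just before the transcription start are shown for 4 of the genes, which moved together across libraries and span the adipokines, the droplet coat and the regulator. Others of the 10, such as Cidec, moved together as closely and are not shown. The sequences are from RefSeq on GRCm38.p6, written 5′ to 3′ on the gene's strand and ended where the first GENCODE exon begins; 8 of the 10 genes, with 11 starts, were in the table used. Capitals mark matches to TTGCNNAA, a motif of C/EBP factors, on either strand.
Adipoq, chr16:23146286-23146535, plus strand: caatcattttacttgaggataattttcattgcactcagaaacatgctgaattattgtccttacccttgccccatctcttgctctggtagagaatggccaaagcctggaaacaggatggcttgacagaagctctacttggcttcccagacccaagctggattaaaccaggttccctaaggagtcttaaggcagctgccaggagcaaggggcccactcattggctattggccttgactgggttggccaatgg
Lep, chr6:29059971-29060219, plus strand: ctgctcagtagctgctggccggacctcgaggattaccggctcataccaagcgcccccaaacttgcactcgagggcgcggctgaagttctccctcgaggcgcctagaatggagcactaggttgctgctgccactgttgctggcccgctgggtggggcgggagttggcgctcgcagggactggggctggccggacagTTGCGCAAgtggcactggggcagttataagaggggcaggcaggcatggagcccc
Plin1, chr7:79732904-79733026, minus strand: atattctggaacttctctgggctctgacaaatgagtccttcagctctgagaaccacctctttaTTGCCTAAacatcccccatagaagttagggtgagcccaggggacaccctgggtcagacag
Pparg, start 3, chr6:115421816-115422065, plus strand: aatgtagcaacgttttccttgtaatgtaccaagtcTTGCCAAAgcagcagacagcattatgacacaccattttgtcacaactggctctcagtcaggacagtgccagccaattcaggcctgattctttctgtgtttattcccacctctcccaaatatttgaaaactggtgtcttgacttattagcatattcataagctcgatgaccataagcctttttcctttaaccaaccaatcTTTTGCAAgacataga
With the base before the RefSeq start counted as -1, the Lep match TTGCGCAA begins at -55 and reads the same on both strands. The Plin1 match shown, TTGCCTAA, begins at -187, and a second, TTGCCCAA, lies at -58 within the first GENCODE exon. Start 3 of Pparg has TTGCCAAA at -215 and, as a match on the opposite strand, TTTTGCAA at -16, while Adipoq has none in this window. In all, 4 of the 11 promoters of these genes held TTGCNNAA in their 250 bases, compared with 9.56% of 32851 promoters. Start 3 was the only start of Pparg with this motif, and of the starts not shown only start 2 of Cidec held it. The windows shown are thus richer in it than those not shown. The nuclear receptor half-site AGGTCA was found on either strand in 2 of the 11, both of Pparg, and in 14.02% of all promoters. Its direct repeat with a base between, AGGTCANAGGTCA, was in 0 of the 11 and in 0.0335% of all. These matches describe letters and not binding.

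Across the 4 groups, MC had the lowest mean of each of the 10 genes. DMC had the highest mean for 6 of them, DC for Plin1, Lep and Pparg, and WT for Lpl. The spread within DMC was wide, however, and none of the 10 genes passed the test between any pair of groups. All differences below are log2 differences from a limma fit over all 16 libraries, and a gene was called at a Benjamini-Hochberg adjusted p below 0.05.

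**Figure D1:**
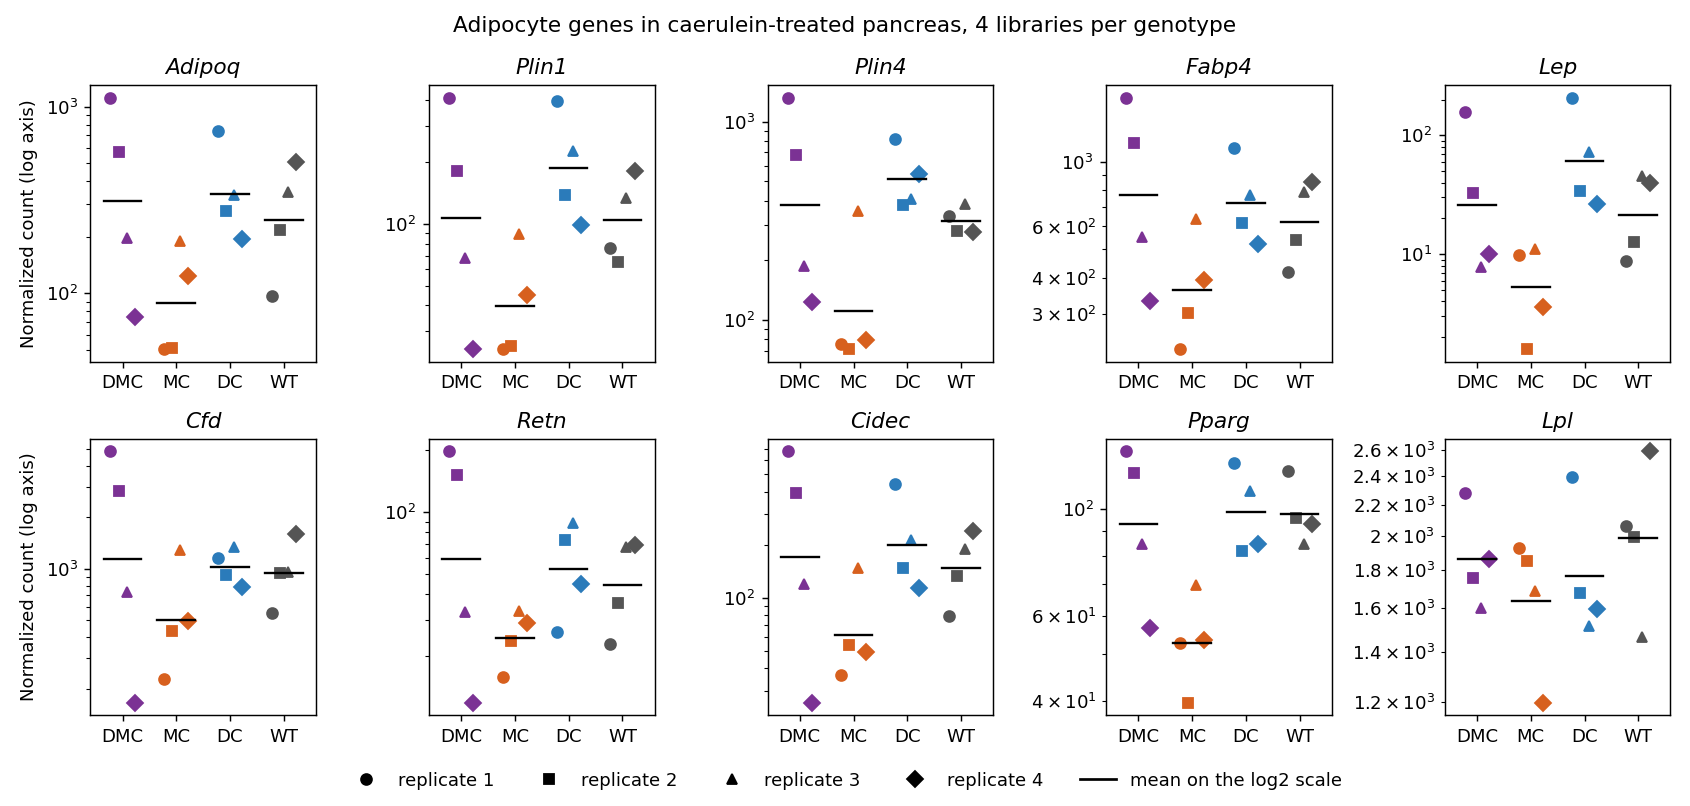
Normalized counts of the 10 adipocyte genes in each of the 16 libraries, on a log axis, with 1 panel a gene and the groups DMC, MC, DC and WT from left to right. Points are libraries and bars are group means taken on the log2 scale. Adipoq runs from 74.9 to 1117 in DMC and from 50.2 to 190.0 in MC.

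The secreted proteins come first. Adipoq (chromosome 16, 23146536 to 23158028, GRCm38) encodes adiponectin, an adipokine that raises insulin sensitivity. It had 1117, 569.7, 197 and 74.9 normalized counts in the DMC libraries 1 to 4, 50.2, 50.8, 190.0 and 124 in MC, 736, 276, 335 and 195 in DC, and 97.2, 218, 348 and 505 in WT. Every MC library was below every DC library, the highest MC library at 190.0 lying just under the lowest DC library at 195. The DMC libraries reached from within the MC range to the highest level of all 16.

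Lep (chromosome 6, 29060220 to 29073877) encodes leptin, the adipokine that signals fat stores to the brain. Its levels were 158, 32.5, 7.84 and 10.1 in DMC, 9.80, 1.59, 11.1 and 3.63 in MC, 208, 34.0, 71.8 and 26.4 in DC, and 8.84, 12.7, 45.7 and 39.5 in WT. Per kilobase of exon it was the least abundant of the 10. The 4 MC libraries held between 1 and 11 reads of it, and the lowest was under the limit that a count of 0 allows, so that its MC level rests on few reads. MC and DC did not overlap for Lep either.

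Cfd (chromosome 10, 79890853 to 79892655) encodes adipsin, which is complement factor D. It had 4875, 2858, 729 and 165 normalized counts in DMC, 228, 433, 1284 and 496 in MC, 1154, 923, 1341 and 781 in DC, and 549.8, 943, 954 and 1604 in WT. The highest DMC library was 29.5 times the lowest, the widest ratio of any of these genes in any group, and all 4 groups overlapped. Retn (chromosome 8, 3655770 to 3660110) encodes resistin, an adipokine of mouse fat cells. It ranged from 11.9 to 199 in DMC, 15.9 to 33.4 in MC, 26.3 to 88.9 in DC and 23.0 to 69.2 in WT, again with overlap between all groups.

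Among proteins of the lipid droplet, Plin1 (chromosome 7, 79720218 to 79732903) encodes perilipin 1, which coats the droplet and controls access of lipases. It had 412, 181, 67.9 and 24.7 in DMC, 24.5, 25.4, 88.9 and 45.0 in MC, 397, 138, 227 and 99.1 in DC, and 76.0, 65.1, 134 and 180.1 in WT. Plin4 (chromosome 17, 56100591 to 56109803), a perilipin found on small nascent droplets, had 1321, 677, 188 and 123 in DMC, 76.0, 71.4, 355 and 79.8 in MC, 819, 381, 406 and 547 in DC, and 334, 281, 384 and 279 in WT. For both perilipins every MC library was below every DC library. For Plin4 3 of the MC libraries sat between 71.4 and 79.8, and MC library 3 stood apart at 355, within the WT range. Cidec (chromosome 6, 113424634 to 113435760), which promotes droplet fusion into the large droplet of white fat, ranged from 25.6 to 677 in DMC, 36.8 to 149 in MC, 113 to 444 in DC and 79.6 to 238 in WT. The MC and DC ranges of Cidec overlapped by MC library 3 alone, whose 149 exceeded the 148 of the second DC library and the 113 of the fourth.

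Of the genes of fatty acid handling, Fabp4 (chromosome 3, 10204088 to 10208576) encodes the fatty acid carrier of adipocyte cytoplasm. It had 1669, 1164, 551 and 332 in DMC, 227, 302, 639 and 393 in MC, 1116, 616, 769 and 521 in DC, and 419, 538, 789.8 and 851 in WT, with overlap between all groups. Lpl (chromosome 8, 68880491 to 68907448) encodes lipoprotein lipase, which frees fatty acids from lipoproteins at the capillary wall. It had 2278, 1757, 1603 and 1864 in DMC, 1925, 1851, 1687 and 1197 in MC, 2393, 1675, 1517 and 1598 in DC, and 2058, 1993, 1467 and 2594 in WT. Lpl was thus nearly level, with the highest library of a group at most 1.77 times its lowest.

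Pparg (chromosome 6, 115360951 to 115490399) encodes PPARγ itself. It had 132, 119, 84.9 and 56.7 normalized counts in DMC, 52.7, 39.7, 69.7 and 53.7 in MC, 125, 82.1, 109 and 84.7 in DC, and 120.2, 95.8, 84.8 and 93.3 in WT. All 4 MC libraries were below all 8 DC and WT libraries, and of the 10 genes only Pparg was separated in this way from both groups. Per kilobase of exon, mean WT levels were 1098 for Cfd, 211 for Adipoq, 194 for Lpl, 145 for Fabp4, 86.2 for Cidec, 55.3 for Plin4, 33.4 for Pparg, 31.0 for Retn, 24.5 for Plin1 and 7.95 for Lep. Every base in an exon of any annotated transcript was counted. For Fabp4 these were 4489 bases, the whole span of the gene. The order of the genes on this scale thus depends on which transcripts are annotated, and a gene with a long pooled exon length can be understated.

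The libraries within a group differed in a way that most of the 10 genes shared. DMC library 1 had the highest level of all 16 libraries for 8 of the genes, the exceptions being Lep, highest in DC library 1, and Lpl, highest in WT library 4. It was also the highest DMC library for all 10, and DMC library 4 was the lowest DMC library for 8. In MC, library 3 was the highest for 9 of the 10, Lpl being the exception. The ratio of the highest to the lowest library had a median over the 10 genes of 15.8 in DMC, 3.71 in MC, 2.76 in DC and 2.84 in WT. Averaged over the 10 genes as centred log2 levels, the DMC libraries ran from -1.35 to 1.90, the MC libraries from -1.41 to -0.08, the DC libraries from 0.05 to 1.19 and the WT libraries from -0.45 to 0.65.

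**Figure D2:**
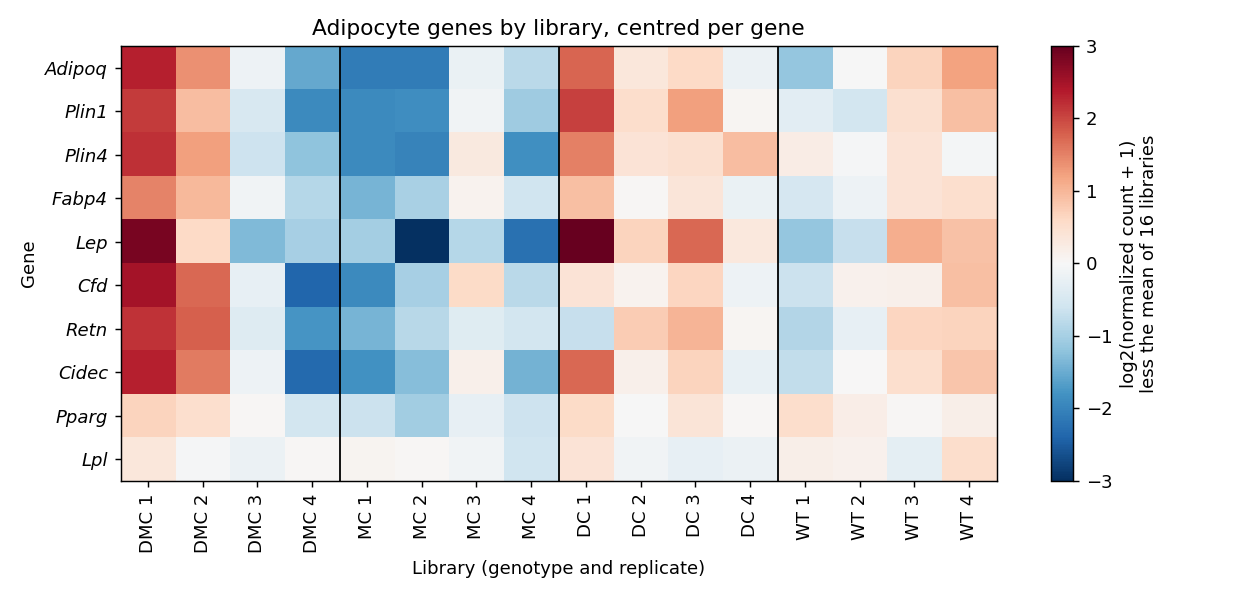
Log2 level of each adipocyte gene in each library, centred on the gene's mean over the 16 libraries, with genes in rows and libraries in columns in the order DMC, MC, DC and WT. Colour runs from low to high and is capped at 3 units either way; 9 of the 10 rows are high together in DMC library 1 and DMC library 2 and low together in MC libraries 1, 2 and 4, while the Lpl row stays near its mean.

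Genes that followed the 10 most closely over the libraries were mostly further fat cell genes. Likeness was measured as Pearson's r over 16 libraries between a gene's log2 level and the mean level of the 10 genes, as a description, since all genes share the libraries and their depth. Plin1 and Cidec both had r = 0.978, Fabp4 0.976, Adipoq 0.975, Plin4 0.933, Cfd 0.921, Lep 0.894, Pparg 0.861 and Retn 0.833. These values are raised because each gene is part of the mean. Lpl had r = 0.342 and ranked 2485 of the 14220 genes. The 8 genes outside the 10 that were most alike were Car3 (r = 0.986), Lipe (0.938), Ankef1 (0.936), Adig (0.932), Cd36 (0.930), Trarg1, listed as Tusc5 (0.927), Acsl1 (0.916) and Slc7a10 (0.896). Car3, a carbonic anhydrase abundant in fat, averaged 2502 ± 2405 in DMC, 648 ± 435 in MC, 2039 ± 1218 in DC and 1407 ± 731 in WT (SD, n = 4 each). Lipe, the hormone-sensitive lipase, averaged 299.8 ± 151 in DMC, 161 ± 39.2 in MC, 274 ± 79.9 in DC and 236 ± 74.0 in WT.

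DMC against MC asked what the loss of Daxx added where Men1 was also lost. All 10 genes had a positive log2 difference, against 51.1% of all genes tested, with a median of 1.31 against 0.01 over all genes. The largest were Lep with 2.09 ± 0.88 (SE, limma adjusted p = 0.834), Adipoq with 1.81 ± 0.73 (limma adjusted p = 0.798) and Plin4 with 1.76 ± 0.63 (limma adjusted p = 0.708). Cidec had 1.44, Plin1 1.39, Retn 1.23, Cfd 1.18 and Fabp4 1.09, with limma adjusted p from 0.795 to 0.950. Pparg, with 0.81 ± 0.25, had the lowest adjusted p of the 10 (limma adjusted p = 0.559), and Lpl had 0.18 (limma adjusted p = 0.985). None of the 10 passed, in a comparison in which 0.00703% of all genes did. Of the 10, edgeR called 0 (0.00703% of all genes) and DESeq2 0 (0.394%). At an unadjusted p below 0.05, 5 of the 10 were higher in DMC, Adipoq, Plin4, Fabp4, Lep and Pparg, against 3.19% of all genes. For 0 of the 10 did all DMC libraries exceed all MC libraries, against 2.14% of all genes. Most of the 10 rose and fell together across libraries, so the counts out of 10 here and in the comparisons below are descriptions. They are not 10 independent results, and the genes were chosen with earlier results of these data known. The median difference was 0.73 without DMC library 1 and 2.10 without DMC library 4, so that its size depended on these libraries while its sign did not.

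**Figure D3:**
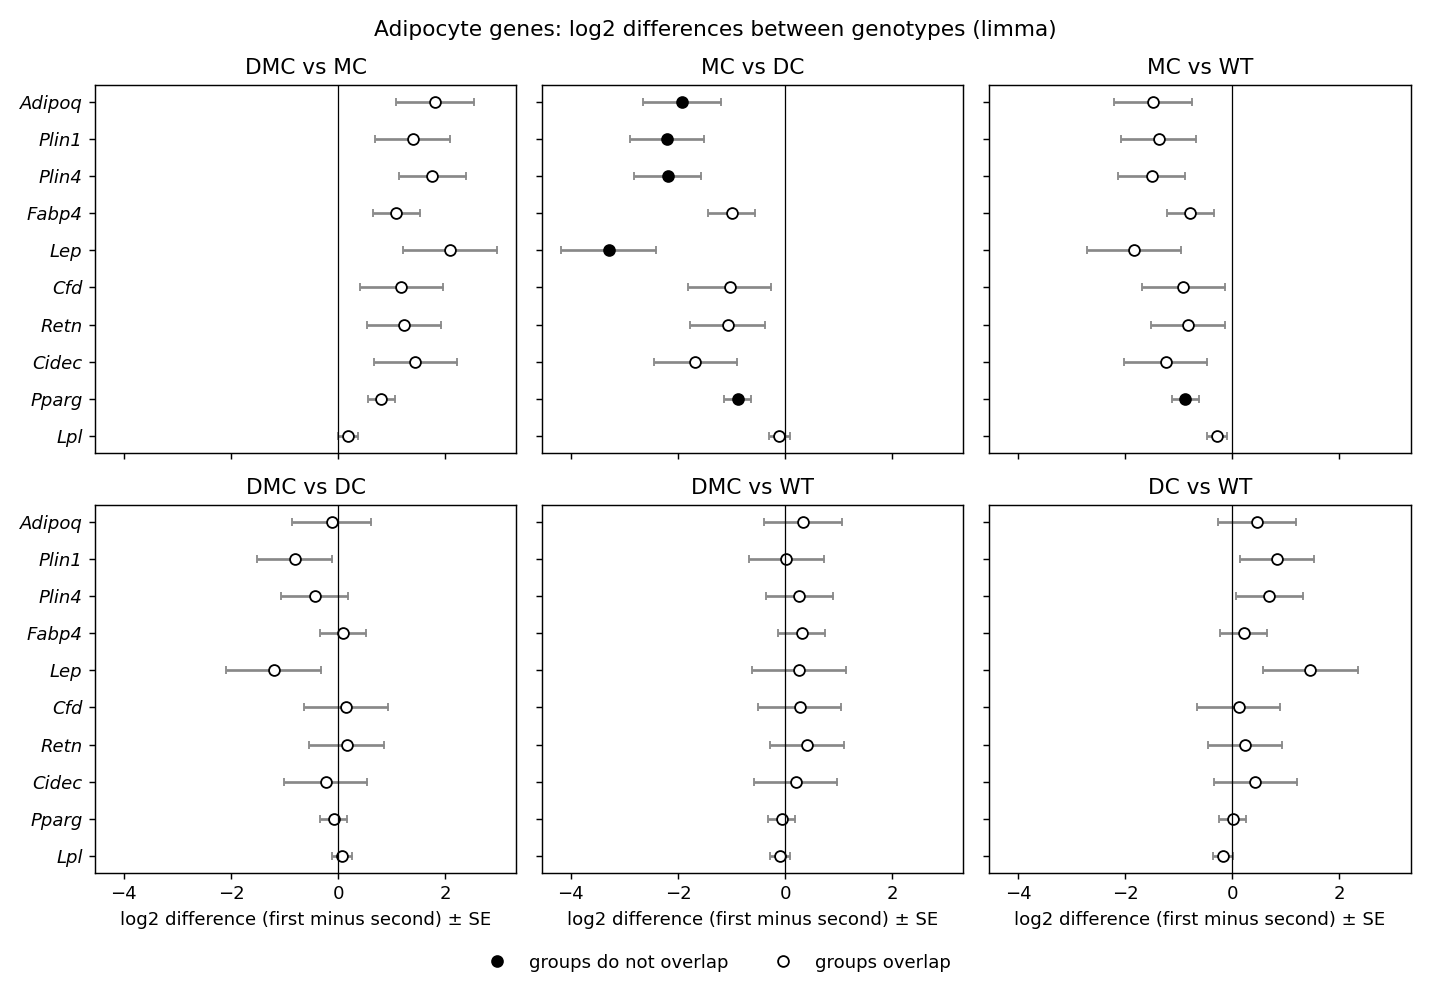
Log2 differences of the 10 adipocyte genes with their standard errors from limma, for the 6 pairs of groups. Each point is a gene, filled where the libraries of the groups do not overlap, and the line marks 0; all 10 lie above 0 in DMC against MC and all 10 below 0 in MC against DC and MC against WT.

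MC against DC set the loss of Men1 beside the loss of Daxx, and here the levels were the most distinct. All 10 differences were negative, against a positive share of 50% over all genes, and their median was -1.37 against 0.00 over all genes. Lep had the largest, -3.30 ± 0.88 (SE, limma adjusted p = 0.083), followed by Plin1, Plin4 and Adipoq. Pparg had -0.89 ± 0.25 (limma adjusted p = 0.104). Chosen after their values were seen, Plin1 had -2.21 (limma adjusted p = 0.146), Plin4 -2.19 (limma adjusted p = 0.105) and Adipoq -1.93 (limma adjusted p = 0.237). None of the 10 passed, where 1.37% of all genes did. At an unadjusted p below 0.05, 7 of the 10 were lower in MC, against 7.05% of all genes. The groups did not overlap for 5 of the 10, namely Adipoq, Plin1, Plin4, Lep and Pparg, against 4.29% of genes lower in MC without overlap. For each of these 5 the exact permutation test over 70 assignments gave p = 0.0286, two-sided, the smallest these groups allow, and the adjusted value over the 60 such tests run was 0.286. DESeq2 called 3 of the 10, Lep, Pparg and Plin1, against 3.52% of all genes, and edgeR called 0, against 1.26%. With limma, Plin4 passed without MC library 3 (-2.75, limma adjusted p = 0.0436), and Lep passed without DMC library 1 (-3.30, limma adjusted p = 0.0422).

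MC against WT addressed the loss of Men1 alone. All 10 differences were again negative, where 47.1% of all genes were positive, with a median of -1.08 against -0.02 over all genes. All 14 lymphoid marker genes were negative here as well. Pparg had -0.87 ± 0.25 (SE, limma adjusted p = 0.130) with no overlap between the groups (exact permutation p = 0.0286, adjusted 0.286), and 3.23% of all genes were lower in MC without overlap. Plin4 had -1.50 ± 0.63 (limma adjusted p = 0.324). None of the 10 passed, where 0.781% of all genes did, and 2 were lower at an unadjusted p below 0.05, against 5.24% of all genes. Of the 10, edgeR called 0 (0.781% of all genes) and DESeq2 0 (2.75%). The 6 genes mostly made by adipocytes had a median difference of -1.42, and the other 4 had -0.83. In MC against DC these medians were -2.06 and -0.94, and in DMC against MC 1.60 and 0.95.

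The other comparisons gave smaller differences. In DC against WT, the loss of Daxx alone, 9 of the 10 were positive, against 47.3% of all genes, with a median of 0.34 that was 0.08 without DC library 1 and 0.07 without WT library 1. Lep had 1.46 ± 0.88 (SE, limma adjusted p = 0.560) and Plin1 0.84 ± 0.70 (limma adjusted p = 0.700), and none of the 10 passed, where 0.0211% of all genes did. In DMC against WT, 8 of the 10 were positive, against 47.3% of all genes, with a median of 0.26. None passed, and the lowest p belonged to Fabp4 with 0.31 ± 0.44 (limma adjusted p = 0.802) and Retn with 0.41 ± 0.69 (limma adjusted p = 0.840), where 0.788% of all genes passed. That median was -0.31 without DMC library 1, -0.06 without DMC library 2 and -0.03 without WT library 1. In DMC against DC, the loss of Men1 on top of Daxx, 4 of the 10 were positive, against 50.6% of all genes, with a median of -0.10 that was 0.03 without DMC library 3, 0.33 without DMC library 4 and 0.09 without DC library 1. None of the 10 passed, where 0.534% of all genes did. Lep had -1.20 ± 0.88 (SE, limma adjusted p = 0.604) and Plin1 -0.81 ± 0.70 (limma adjusted p = 0.676). The interaction, which is the DMC and MC difference minus the DC and WT difference, was positive for all 10, against 52.1% of all genes, with a median of 0.93 that was 0.39 without DMC library 1, 0.62 without DMC library 2 and 1.44 without DMC library 4. Pparg had 0.79 ± 0.36 (limma adjusted p = 0.610) and Fabp4 0.88 ± 0.62 (limma adjusted p = 0.768), and 0 of the 10 passed, as did 0% of all genes. The interaction was positive at an unadjusted p below 0.05 for 1 of the 10, Pparg, against 3.52% of all genes; edgeR called 0 of the 10 (0% of all genes) and DESeq2 0 (0.302%).

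By edgeR, by DESeq2 and at an unadjusted p below 0.05, 0 of the 10 were called in DMC against DC, DMC against WT and DC against WT. In DMC against DC, edgeR called 0.499% and DESeq2 2.43% of all genes, and at an unadjusted p below 0.05 the shares of all genes were 7.21% higher and 6.03% lower. In DMC against WT, edgeR called 0.717% and DESeq2 2.33%, with 8.43% higher and 4.11% lower. In DC against WT, edgeR called 0.0211% and DESeq2 1.99%, with 7.47% higher and 4.24% lower. The comparisons share groups of libraries, so their directions are not independent of each other.

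Other genes of the fat cell were taken from lists by function. Of 16 other white adipocyte markers, 0 passed in any comparison. Their median differences were 0.78 in DMC against MC, -0.77 in MC against DC and -0.64 in MC against WT. The lowest limma adjusted p on this list was 0.058 in DMC against MC. In DMC against DC, where 12 of the 16 were negative, it was 0.0698. Of 16 tested genes of the lipid droplet and lipolysis, 1 fell in MC against WT, in DMC against WT and in MC against DC, and 0 rose. It was Pde3b, the phosphodiesterase through which insulin restrains lipolysis, with 601 ± 45.9 normalized counts in DMC, 547 ± 70.5 in MC, 845 ± 97.7 in DC and 953 ± 156 in WT (SD, n = 4 each). Its log2 differences were -0.80 in MC against WT (limma adjusted p = 0.0098), -0.65 in DMC against WT (limma adjusted p = 0.0286) and -0.63 in MC against DC (limma adjusted p = 0.0247). Pde3b thus differed little between DMC and MC. The call in MC against WT held whichever library was left out and was lost when only these groups were fitted (limma adjusted p = 0.0542). That in MC against DC was lost without MC library 2, 3 or 4 or DC library 2 or 4, and that in DMC against WT without DMC library 1, 2 or 4 or WT library 3 or 4, with adjusted p up to 0.117 and log2 differences no nearer to 0 than -0.54. The call in DMC against WT was also lost with only these groups fitted (limma adjusted p = 0.0798) and without WT libraries 2 and 3 together (limma adjusted p = 0.0576).

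Of 16 genes of fatty acid and glucose uptake, 1 rose, in MC against WT and in MC against DC. This was Fabp5, a fatty acid carrier of epithelium and macrophages as well as fat, at 642 ± 101.2 in DMC, 862 ± 98.8 in MC, 396 ± 75.4 in DC and 373 ± 92.1 in WT. Its log2 difference was 1.23 in MC against WT (limma adjusted p = 0.00575) and 1.13 in MC against DC (limma adjusted p = 0.00679). Both calls held in all 29 alternative analyses. MC, with the lowest mean of Fabp4, had the highest of Fabp5. DMC, however, had the highest mean of Fabp4 and also a higher mean of Fabp5 than DC or WT. Of 14 tested transcription factors of adipocyte identity, 1 fell in MC against DC and 1 rose in DMC against WT. Zbtb16, a zinc finger factor with a role in adipogenesis, averaged 881 ± 769 in DMC, 254.7 ± 72.9 in MC, 2015 ± 786 in DC and 1057 ± 393 in WT, and its difference in MC against DC was -2.91 ± 0.52 (SE, limma adjusted p = 0.0144). The call was lost without MC library 2, DC library 2 or DC library 4, with adjusted p up to 0.0554. Mlxipl, which encodes the carbohydrate-response factor ChREBP, averaged 222 ± 72.2 in DMC and 92.1 ± 19.5 in WT, a difference of 1.24 ± 0.27 (limma adjusted p = 0.0478). The call was lost in 20 of 29 alternative analyses, among them 14 of the 16 that left out a library, with differences from 1.03 to 1.33.

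Of 7 tested brown and beige adipocyte genes, 2 rose in MC against WT, and 1 rose in each of DMC against WT, DMC against DC and MC against DC. Kcnk3, a potassium channel of brown fat and of other tissues, averaged 54.7 ± 13.9 in DMC, 55.7 ± 15.6 in MC, 15.7 ± 5.95 in DC and 15.1 ± 4.92 in WT. Its log2 differences were between 1.79 and 1.83 in these 4 comparisons (limma adjusted p from 0.0163 to 0.0265), and no lower than 1.49 with any library left out. The call was lost in DMC against DC without library 2, 3 or 4 of DMC or of DC. It was lost in MC against DC without DC library 2 or 4, in DMC against WT without DMC library 2 or 4 or WT library 3 or 4, and in MC against WT without MC library 3 or 4 or WT library 3, with adjusted p up to 0.0895. With only the compared groups fitted it was lost in DMC against DC (limma adjusted p = 0.0659), DMC against WT (0.0735) and MC against WT (0.0542). It was also lost in DMC against DC under a filter of 50 normalized counts (limma adjusted p = 0.0528), and without WT libraries 2 and 3 together in DMC against WT (0.0789) and MC against WT (0.0640). Dio2, the deiodinase that activates thyroid hormone, averaged 11.7 ± 6.12 in DMC, 52.6 ± 25.2 in MC, 15.4 ± 5.03 in DC and 8.32 ± 6.67 in WT. The WT libraries held between 4 and 16 reads of it, so that its WT level rests on few reads. In MC against WT the difference was 2.64 ± 0.53 (limma adjusted p = 0.0317). The call was lost without MC library 1, 3 or 4 or WT library 2 or 3, with differences of at least 2.35 and adjusted p up to 0.117. It was also lost with only MC and WT fitted (limma adjusted p = 0.0985) and without WT libraries 2 and 3 together, where the difference was 1.84 (limma adjusted p = 0.183). Of the 15 brown and beige genes listed, 10 were in the table of genes and 7 passed the filter on low values. Ucp1, Elovl3 and Cpt1b, which define brown fat more closely, were on this list, and Cidea was on that of the lipid droplet. None of them was among the genes called, and their levels are not reported here. Of the lists of fatty acid and triglyceride synthesis (19 genes tested), adipokines and their receptors (15) and adipocyte progenitors (13), 0 genes passed in any comparison. The medians of the lists did not all run with those of the 10 genes. In MC against WT, where the 10 had a median log2 difference of -1.08, that of lipid droplet and lipolysis was -0.47, of synthesis -0.16, of uptake -0.13 and of brown and beige genes -0.11. That of the identity factors was 0.08 (9 of 14 positive), of the adipokines and receptors 0.18 (11 of 15) and of the progenitors 0.28 (10 of 13). In DMC against MC the medians were 0.28, 0.15, 0.14, -0.02, 0.08, 0.12 and 0.02 in the same order of lists, against 1.31 for the 10. In MC against DC they were -0.39, -0.37, -0.29, 0.49, -0.20, -0.12 and -0.21, against -1.37. Fasn, the fatty acid synthase, averaged 3023 ± 453 in DMC, 3002 ± 706 in MC, 5014 ± 935 in DC and 3496 ± 1760 in WT. Adipor1, the adiponectin receptor, averaged 1574 ± 196 in DMC, 1695 ± 133 in MC, 1548 ± 135 in DC and 1711 ± 275 in WT. Pdgfra, a progenitor and fibroblast marker, averaged 1424 ± 252 in DMC, 1190.0 ± 107 in MC, 1569 ± 538 in DC and 982 ± 109 in WT.

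Markers of other cells that whole pancreas can hold were set beside the adipocyte genes. Summarised as mean centred log2 levels, the 14 lymphoid markers ran from -1.64 to 1.90 in DMC, -1.53 to 1.17 in MC, -1.34 to 1.28 in DC and -1.80 to 3.30 in WT. In MC against WT all 14 lymphoid differences were negative, with a median of -2.07, and in DMC against MC 12 of the 14 were positive, with a median of 0.88. The interaction was positive for all 14, with a median of 2.20. In these 3 contrasts the lymphoid markers thus ran in the direction of the adipocyte genes. In MC against DC 8 of the 14 were negative, with a median of -0.30, and in DMC against WT and DC against WT all 14 were negative, with medians of -1.10 and -1.27, where most of the adipocyte genes were positive. Other lists ran with the adipocyte genes in some contrasts only. In DMC against MC, 13 of 13 islet (median 0.41), 13 of 14 macrophage (0.25) and 9 of 10 mesothelial markers (0.55) were positive. In MC against DC, 11 of 12 fibroblast (median -0.37) and 10 of 13 endothelial markers (-0.15) were negative, while 11 of 13 islet markers were positive. In MC against WT the medians of these lists were positive, from 0.22 to 0.78. The part of the RNA of any of these cells in the differences of the adipocyte genes was not tested. The 15 acinar markers ran from -0.63 to 0.23 in DMC, -0.62 to 0.27 in MC, -0.93 to 0.30 in DC and 0.00 to 0.83 in WT. Of the acinar list 1 gene, Ctrl, which encodes a chymotrypsin-like protease, fell in DMC against WT (113459 ± 31394 in DMC, 441540.0 ± 165038 in WT, limma adjusted p = 0.04); the call was lost in 15 of 29 alternative analyses, among them 12 of the 16 that left out a library, with log2 differences from -2.10 to -1.72. In the lists of 13 endothelial, 14 macrophage, 12 fibroblast, 10 mesothelial, 14 lymphoid, 10 duct and 13 islet markers, 0 genes passed in any comparison. The macrophage list, whose cells also make Fabp4, Lpl and Pparg, had levels from -0.16 to 0.62 in DMC, -0.30 to 0.21 in MC, -0.48 to 0.91 in DC and -1.04 to 0.31 in WT. The 4 Y-linked genes had median levels of 1.20 in DMC, 0.59 in MC, -4.10 in DC and 0.49 in WT. Their range reached from -3.84 to 5.08 in DMC, -4.31 to 5.24 in MC, -4.31 to 4.95 in DC and -4.31 to 5.17 in WT. High levels were in DMC libraries 1 and 3, MC libraries 1 and 2, WT libraries 1 and 2, and DC library 1 alone. DC thus had fewer libraries high in Y-linked transcripts than the other groups, MC included. DC library 1 was also the highest DC library for 8 of the 10 adipocyte genes. The part of this in the adipocyte gene levels was not tested beyond the correlation below.

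The level of Adipoq was compared with 12 measures over the 16 libraries, with permutation tests adjusted over the 12. The lymphoid level had Pearson's r = 0.56 (permutation p = 0.0238, adjusted 0.166) and Spearman's rho = 0.71 (permutation p = 0.00258, adjusted 0.0310). Without the libraries farthest from the median Adipoq level, DMC library 1 and MC library 1, r was 0.58, and within groups, on deviations from the group means, r was 0.62. The duct level had r = -0.49 (permutation p = 0.0510, adjusted 0.166) and rho = -0.66 (permutation p = 0.00619, adjusted 0.0371), with r = -0.44 without these libraries and -0.36 within groups. The number of reads over the genes of the table, on a log10 scale, had r = 0.55 (permutation p = 0.0282, adjusted 0.166) and rho = 0.61 (permutation p = 0.0147, adjusted 0.0590). The Y-linked level had r = -0.13 (permutation adjusted p = 0.675). The other 8 measures had r between -0.37 and 0.48, with adjusted p of at least 0.166. Within groups, on deviations from the group means, their r ran from -0.46 for the acinar to 0.59 for the progenitor level. It was 0.55 for the fibroblast, 0.55 for the macrophage and 0.46 for the endothelial level, each larger in size than that of duct. By rank over all 16 libraries, therefore, Adipoq was high in libraries with much lymphoid and little duct RNA. These ranks mix differences between groups with those within groups, and within groups the lymphoid and duct levels did not stand apart from the other lists. The part of these in the differences between groups was not tested.

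**Figure D4:**
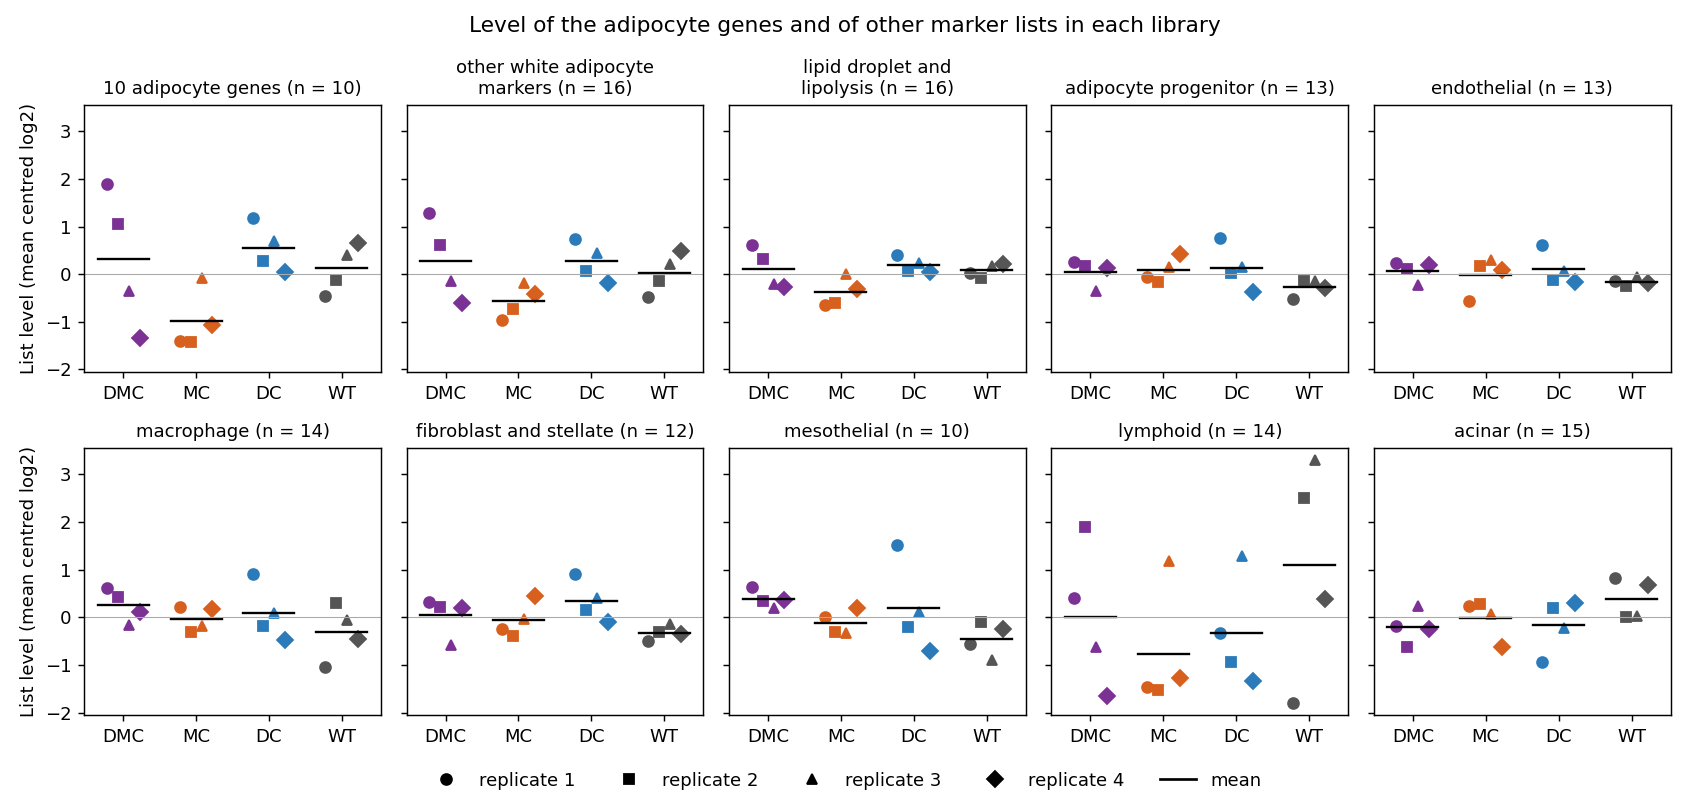
Mean centred log2 level of each marker list in each library, with the groups DMC, MC, DC and WT from left to right in each panel. Points are libraries and bars are group means; the adipocyte genes lie between -1.41 and -0.08 in MC and between 0.05 and 1.19 in DC, without overlap, while the lymphoid markers reach 3.30 in WT.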

How the data were processed

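Groups were read from the sample labels, which call the 4 animals of a genotype independent biological replicates. Per the labels' protocols, strand-specific total RNA libraries were made from frozen pancreas. Per the submitters' processing notes, STAR 2.6.0b and the GRCm38 genome served for alignment and DESeq2 for analysis. Not given in the sources used here are the DESeq2 version, the read counter, the annotation release and any filter on genes. The deposited table holds a normalized signal: counts per gene after the authors' division by a size factor, 0.566 to 1.63 among libraries. All values (100%) of a library were multiples of 1 step to within 0.01 reads, so reads were recovered for edgeR 4.0.16 and DESeq2 1.42.0.

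Genes with at least 10 normalized counts in at least 4 libraries were fitted as log2 of the value plus 1, which understates changes of low genes, with limma 3.58.1 (trend) in R 4.3.3, 16 libraries in 1 fit. Benjamini-Hochberg adjustment ran over all 14220 genes per comparison, and exact permutation tests, two-sided on mean log2 levels, were companions. The test was checked on simulated data in which libraries of a group differed less than they did for most of the 10 genes in DMC. That check therefore does not give the power of the test for these genes. The 10 genes, the lists and the tests were chosen with earlier results of these data known. Named were all 10 genes, with differences for all in DMC against MC and for those called, or the 2 with the smallest p, elsewhere; per list up to 3 called genes, else the 2 most abundant, shown for lists described; the 8 genes most alike; and Men1 and Daxx. Alternatives covered the pseudocount, filter, scaling, robust and weighted fits, fits of only the compared groups, edgeR, DESeq2, a replicate block, leaving out each library, leaving out WT libraries 2 and 3 together, and the 6 defining adipocyte genes alone. Exon lengths and gene coordinates came from GENCODE M21. Libraries of a group differed beyond sampling noise, with chi-square per degree of freedom from 8.63 to 132.6.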

Additional observations from a re-analysis of the deposited data

Results flagged for a closer look

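In 48 groups of 4 libraries, made up of the genes described by level in the 4 genotypes, 4 had a library far from the other 3 by Dixon's criterion (the gap to the nearest library set against the range). In each of the 4 it was the highest library. The nominal rate of about 1 in 20 assumes normal values and independent groups. Here the criterion was applied to normalized counts without a log, and most of these genes rose and fell together, so the number is a description. Plin4 had 354.8 normalized counts in MC library 3, and 71.4 to 79.8 in the other 3 MC libraries. Cidec had 148.6 in the same library, and 36.8 to 54.0 in the others. Lep had 157.6 in DMC library 1, and 7.84 to 32.5 in the other 3 DMC libraries. Men1 had 459.3 in WT library 3, and 331 to 345 in the other WT libraries.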

How the results depend on the processing

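The count of the 10 genes past the threshold was 0 in every alternative run for every comparison but MC against DC. There it was 1 (Lep) when only the compared groups were fitted and 3 with DESeq2 on recovered reads, and 0 to 1 when each library was left out in turn. Library quality weights turned Lep to 0.46 and Plin1 to 0.36 in DMC against DC. With a library left out, Fabp4 in DMC against WT ran from -0.063 to 0.71, and Retn from -0.17 to 1.15, with -0.04 without DMC library 2. The cause of these was not tested. The median log2 difference of the 10 genes, with a library left out, ran from 0.73 to 2.10 in DMC against MC, -1.79 to -1.16 in MC against DC, -1.51 to -0.93 in MC against WT, -0.64 to 0.33 in DMC against DC, -0.31 to 0.76 in DMC against WT, 0.07 to 0.54 in DC against WT and 0.39 to 1.44 for the interaction. Over the other alternatives it ran from 1.23 to 2.10, -2.06 to -1.07, -1.42 to -0.91, -0.33 to 0.62, 0.18 to 1.06, 0.12 to 0.58 and 0.87 to 1.75 in the same order, with the top of the DMC ranges under library quality weights.

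Counts over all genes moved more. In DMC against MC the 1 gene called became 35 with library quality weights and 56 with DESeq2. In MC against DC the 195 became 1033 and 500, in MC against WT the 111 became 265 and 391, in DMC against DC the 76 became 1655 and 345, in DMC against WT the 112 became 245 and 331, in DC against WT the 3 became 177 and 283, and for the interaction the 0 became 11 and 43. With a library left out they ran from 0 to 19, 49 to 253, 38 to 189, 14 to 188, 17 to 183, 0 to 19 and 0 to 8 in the same order. Replicate numbers recur across the groups. Deviations from the group means were correlated for the 24 pairs of libraries with the same number. The correlations lay on both sides of 0, from -0.371 to 0.384, with a median of -0.028. Of these pairs 11 correlated above 0.1, and others lay about as far below 0. Pairs of libraries with different numbers were not set beside them. With the replicate number as a block, 0 of the 10 genes passed in any comparison, and the counts over all genes fell to 110 in MC against DC, 46 in MC against WT, 37 in DMC against DC and 36 in DMC against WT. Of the genes named outside the 10, the block ended the calls of Mlxipl (limma adjusted p = 0.106) and Ctrl (0.115) in DMC against WT, of Pde3b in MC against DC (0.0741) and DMC against WT (0.0850), of Kcnk3 in DMC against DC (0.0846), DMC against WT (0.0679) and MC against WT (0.0593), and of Dio2 in MC against WT (0.0593). Lep dropped out under a filter of 50 normalized counts, and the interaction has no fit with only the groups compared. The few reads of Lep in MC, from 1 to 11 a library, limit the precision of its fold.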
